A study of Mus musculus with 2 samples.

Results

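*Gabra6*, *Fat2*, *Cbln3*, *Neurod1*, *Pcp2*, *Cnpy1* and *Sycp1* are 7 of the 25556 genes counted in nuclei of the mouse brainstem. They were picked by name for their levels by cluster and genotype in these same libraries. Their HET over WT ratios and their places among the clusters are therefore descriptions, and none is tested. The libraries came from 1 wildtype mouse (WT) and 1 heterozygous *Scn1a* knock-in mouse (HET), both female, at postnatal day 41, untreated and on a C57Bl6 background. HETs carry the A1783V missense change in 1 copy of *Scn1a*, the gene of a voltage-gated sodium channel, and are a model of Dravet syndrome. They were bred from a male with the floxed *Scn1a* allele and a Sox2-Cre female, whose Cre acts in the early embryo and so in nearly all tissues, and WTs came from the same breeding. Single nuclei of flash-frozen brainstem were sequenced as 10x Chromium 3′ libraries, and each count is a unique molecular identifier (UMI), that is, 1 captured RNA molecule.

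The WT library held 9259 nuclei and 70301390 UMIs and the HET library held 9022 nuclei and 66176778 UMIs, with medians of 5456 and 5646 UMIs a nucleus. The deposited labels sort the nuclei into 16 clusters, of which 9 are neuronal (neuron.1 to neuron.9), and in 12 each library had 30 nuclei or more. The libraries shared 23 cell barcodes. Levels are given as counts per 1000000 UMIs of the same nuclei (CPM). With 1 library a genotype nothing could be checked between replicates, and the 95% intervals (exact Poisson for levels and ratios, exact Clopper-Pearson for shares) cover counting error only. Genotype, mouse, dissection and library cannot be told apart, and the sources used here do not say how much cerebellum or cochlear nucleus each piece held. For its metabolite assays the study took brainstem without the cerebellum, and its methods for the nuclei do not repeat that step. With a reference atlas the study annotated a cluster of these nuclei as cerebellar glutamatergic neurons. Projections, shared markers and nearness to other regions are the reasons it calls plausible for such labels.

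Granule cells are small glutamatergic neurons packed into the cerebellar cortex, and a related population lies in the dorsal cochlear nucleus of the brainstem. They receive mossy fibers and send parallel fibers to Purkinje cells, the large GABAergic output neurons of the cerebellar cortex. *Gabra6* encodes the α6 subunit of GABA-A receptors, which mature granule cells use for tonic inhibition. *Fat2* encodes a giant protocadherin of parallel fibers, *Cbln3* a cerebellin that is secreted together with *Cbln1*, and *Neurod1* a basic helix-loop-helix transcription factor that granule cells need to differentiate and survive. *Pcp2*, also called L7, encodes a modulator of G proteins and is a classical marker of Purkinje cells. *Cnpy1* belongs to the canopy family and is linked to fibroblast growth factor signaling at the midbrain-hindbrain boundary. *Sycp1* encodes the transverse filament of the synaptonemal complex, which joins homologous chromosomes in meiosis. The last 2 are not standard markers of either cell type.

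All 7 genes lie on the minus strand of GRCm38 (mm10). *Gabra6* spans chr11:42306437-42321072, *Fat2* chr11:55250609-55336564, *Cbln3* chr14:55878913-55884392 and *Neurod1* chr2:79452521-79456751. *Pcp2* spans chr8:3623371-3625545, *Cnpy1* chr5:28200819-28245806 and *Sycp1* chr3:102818499-102936100. *Neurod1* overlaps *Cerkl* on the same strand, so UMIs from that overlap are uncertain. *Pcp2* overlaps *Pet100* on the other strand. The proximal promoters of 4 members are given here as examples, 3 from granule cell genes (*Gabra6*, *Cbln3* and *Neurod1*) and 1 from the Purkinje cell gene *Pcp2*. Each is the 250 bases before the RefSeq start (GRCm38.p6), 5′ to 3′ on the minus strand, at chr11:42321073-42321322 for *Gabra6*, chr14:55884257-55884506 for *Cbln3*, chr2:79456637-79456886 for *Neurod1* and chr8:3625548-3625797 for *Pcp2*. Capitals mark E-boxes (CANNTG), the letters that *Neurod1* and its relatives bind, and nuclear factor I half-sites (TTGGCA, or TGCCAA on the other strand), a site of the NFI factors known for a role in granule cell maturation.
Gabra6: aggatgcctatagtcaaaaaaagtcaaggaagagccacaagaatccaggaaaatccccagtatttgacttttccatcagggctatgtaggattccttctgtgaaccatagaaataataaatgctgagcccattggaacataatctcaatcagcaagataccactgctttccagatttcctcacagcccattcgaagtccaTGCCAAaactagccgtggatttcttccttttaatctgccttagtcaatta
Cbln3: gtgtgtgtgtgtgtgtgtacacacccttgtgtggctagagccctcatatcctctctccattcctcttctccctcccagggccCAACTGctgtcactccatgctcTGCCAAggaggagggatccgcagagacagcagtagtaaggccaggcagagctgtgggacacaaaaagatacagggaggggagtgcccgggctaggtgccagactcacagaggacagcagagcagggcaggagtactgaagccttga
Neurod1: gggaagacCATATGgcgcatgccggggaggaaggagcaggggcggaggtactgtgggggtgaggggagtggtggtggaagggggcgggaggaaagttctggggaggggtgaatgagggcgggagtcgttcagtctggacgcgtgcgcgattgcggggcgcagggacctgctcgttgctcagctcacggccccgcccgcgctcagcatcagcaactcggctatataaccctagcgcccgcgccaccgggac
Pcp2: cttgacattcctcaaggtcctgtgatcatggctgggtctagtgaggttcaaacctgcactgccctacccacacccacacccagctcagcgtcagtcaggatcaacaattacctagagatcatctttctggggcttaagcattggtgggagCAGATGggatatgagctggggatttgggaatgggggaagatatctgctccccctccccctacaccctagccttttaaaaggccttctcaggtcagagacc

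*Gabra6* had 1 NFI half-site, whose first base lay 50 bases before the start, and no E-box. *Cbln3* had an NFI half-site at 146 bases and an E-box at 168 bases before the start. *Neurod1* and *Pcp2* each had 1 E-box and no NFI half-site, whereas *Cnpy1* and *Sycp1* each had 2 E-boxes. *Fat2* also had 1 E-box and no NFI half-site in the window before its RefSeq start. That window, chr11:55312258-55312507, lies inside the *Fat2* span given above and may not be its proximal promoter. The windows of *Cbln3*, *Neurod1* and *Cnpy1* overlap in part the gene spans given above, whose starts differ from the RefSeq starts. Both motifs were searched on both strands and no match overlapped another. Among 27025 RefSeq promoters of this length, 66.1% held an E-box and 12.5% an NFI half-site, so an E-box sets none of the 7 apart. A match is a run of letters and not a measured binding site.

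Over all nuclei, every one of the 7 genes was higher in the HET library. *Gabra6* had 95 UMIs in WT and 696 in HET, or 1.35 and 10.5 CPM, a log2 ratio of 2.96 (95% interval 2.65 to 3.29). *Fat2* had 86 and 543 UMIs, a log2 ratio of 2.75 (2.42 to 3.09). *Cbln3* had 46 and 241 UMIs, a log2 ratio of 2.48 (2.02 to 2.96). The fourth granule cell gene differed less, since *Neurod1* had 175 and 279 UMIs, a log2 ratio of 0.76 (0.48 to 1.04). *Pcp2* had 56 and 107 UMIs, a log2 ratio of 1.02 (0.54 to 1.51). *Cnpy1* had 43 and 363 UMIs, the highest of the 7 ratios at 3.16 (2.71 to 3.66), and *Sycp1* had 9 and 65 UMIs, 2.94 (1.93 to 4.13).

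Thus 6 of the 7 members were at least 2-fold higher in HET, where 5.10% of the 21997 genes with at least 20 UMIs were, and 7 of 7 were higher by any amount, where 41.1% of those genes were. Since the members were chosen on this contrast, nothing is read from those counts. By the size of the log2 ratio, *Cnpy1* ranked 21 of the 21997 genes, *Gabra6* 30, *Sycp1* 33, *Fat2* 50 and *Cbln3* 83, while *Pcp2* ranked 1078 and *Neurod1* 1755. *Pcp2* stood just inside the 2-fold line and *Neurod1* outside it. The median log2 ratio of the genes with at least 200 UMIs was −0.10, so relative to that median each ratio is 0.10 higher. Of the 4 granule cell genes together (*Gabra6*, *Fat2*, *Cbln3* and *Neurod1*), there were 402 UMIs in WT and 1759 in HET, a log2 ratio of 2.22 (2.06 to 2.38).

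**Figure D1:**
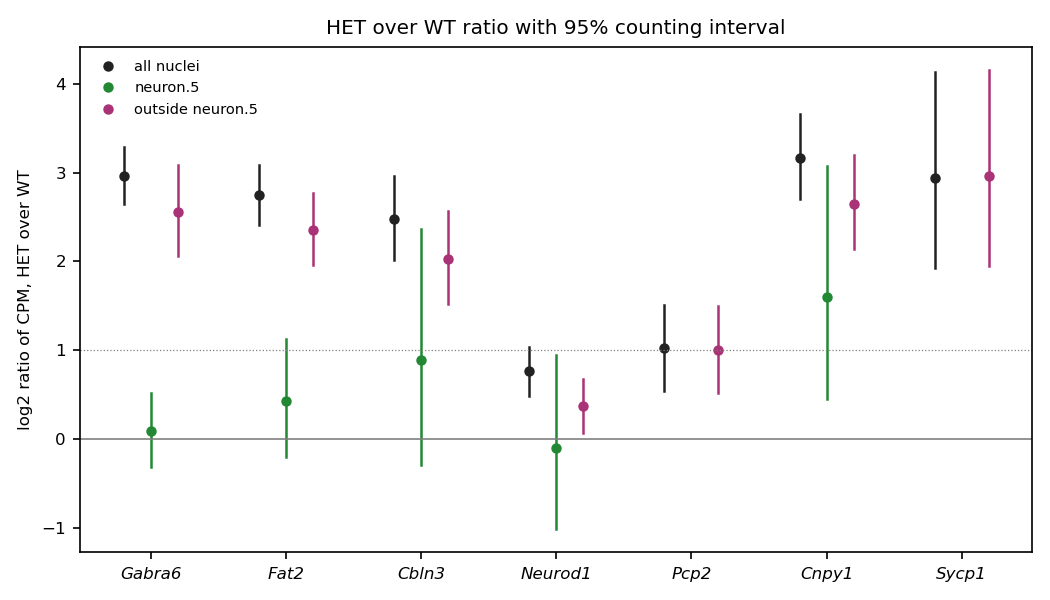
Log2 ratio of CPM, HET over WT, of each gene over all nuclei (black), inside neuron.5 (green) and outside it (purple), with 95% counting intervals. Lines mark equal levels and a 2-fold difference, and *Pcp2* and *Sycp1* have no value inside neuron.5 because WT had 0 UMIs there. The green points sit below the black and purple ones for *Gabra6*, *Fat2*, *Cbln3*, *Neurod1* and *Cnpy1*.

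The libraries held unequal numbers of nuclei of neuron.5, the cluster with the highest level of the granule cell genes. Neuron.5 made up 42 of the 9259 WT nuclei, or 0.454%, and 332 of the 9022 HET nuclei, or 3.68%. In WT it held 58.9% of the *Gabra6* UMIs (56 of 95) and in HET 69.5% (484 of 696). For the 4 granule cell genes together it held 23.6% of the UMIs in WT (95 of 402) and 51.0% in HET (897 of 1759). It held 40.8% of the *Cnpy1* UMIs in HET (148 of 363), and none of the *Sycp1* UMIs in either library.

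Inside neuron.5, the intervals of the ratios of all 4 granule cell genes included 0. *Gabra6* stood at 356 CPM in WT and 379 CPM in HET, which is 0.09 on the log2 scale (−0.31 to 0.52). *Fat2* had 22 and 240 UMIs, or 140 and 188 CPM, a log2 ratio of 0.43 (−0.21 to 1.13). *Cbln3* had 6 and 90 UMIs, or 38.1 and 70.5 CPM, a log2 ratio of 0.89 (−0.29 to 2.37), and *Neurod1* had 11 and 83 UMIs, −0.11 (−1.02 to 0.95). The intervals were wide, because only 42 WT nuclei were counted, so differences up to these limits were not detectable. Of the 4 genes together, the log2 ratio in neuron.5 was 0.22 (−0.09 to 0.54).

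*Cnpy1* was the exception inside neuron.5. It had 6 UMIs in 5 of 42 WT nuclei and 148 UMIs in 92 of 332 HET nuclei, or 38.1 and 116 CPM. The log2 ratio was 1.60 (0.45 to 3.07), an interval above 0. Of the 5 members with at least 20 UMIs in neuron.5, *Cnpy1* alone was at least 2-fold higher in HET, beside 13.0% of the 8893 genes tested there. *Pcp2* had 0 UMIs in WT and 3 in HET, and 0 UMIs in 42 nuclei allows up to 23.5 CPM.

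By the number of nuclei rather than UMIs, *Gabra6* was found in 27 of 42 WT nuclei (64.3%, 48.0% to 78.4%) and in 217 of 332 HET nuclei (65.4%, 60.0% to 70.5%). The medians of neuron.5 were 3461 and 3189 UMIs a nucleus. At least 1 of the 4 granule cell genes was found in 81.0% of the WT and 85.2% of the HET nuclei, and at least 2 of them in 38.1% and 46.7%. Most nuclei with *Gabra6* had 1 or 2 UMIs, with a median of 2 and a highest count of 5 in WT and 28 in HET. Among the HET nuclei of neuron.5, *Fat2* was found in 49.3% of the 217 with *Gabra6* and in 34.8% of the 115 without it. *Neurod1* was found in 18.0% and 19.1% of the same nuclei. In WT *Fat2* was found in 29.6% of the 27 with *Gabra6* and 26.7% of the 15 without it, and *Neurod1* in 25.9% and 6.67%. These WT shares rest on few nuclei.

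Neuron.5 carried the granule cell markers as a set, which describes the cluster and tests nothing, as the clusters were built from the same counts. Of 14 granule cell markers, 14 were over 2-fold higher in neuron.5 than in the other neuronal clusters, with both libraries pooled. Of 15 Purkinje cell markers, 2 were, *Homer3* among them, while *Pcp2* and *Car8* were not. Among unipolar brush cell markers, 5 of 5 were, and of molecular layer interneuron markers, 0 of 6. Among glial markers, 4 of 4 of oligodendrocytes, 2 of 2 of oligodendrocyte precursors and 2 of 3 of astrocytes were too. The share of all genes this much higher was not counted, so nothing is read from these counts. In the order of fold over the other neuronal clusters, *Gabra6* ranked 1 of 8256 genes in WT and 2 of 14517 in HET, *Fat2* ranked 3 and 16, *Cbln3* 5 and 15, *Cnpy1* 9 and 17 and *Neurod1* 28 and 37. *Pcp2* ranked 4024 in HET, at 2.35 CPM in neuron.5 and 1.62 CPM in the other neurons. No cluster stood apart from the others in *Pcp2*.

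Neuron.5 was not uniform. The deposited finer clustering splits it into numbers 15, 21 and 33, with 33, 3 and 6 WT nuclei and 249, 46 and 37 HET nuclei. In finer cluster 15, *Gabra6* stood at 411 CPM in WT (309 to 536) and 466 CPM in HET (421 to 515). *Fat2* was there at 114 CPM in WT (63.9 to 188) and 217 CPM in HET (187 to 252), and *Cbln3* at 45.7 (16.8 to 99.4) and 85.0 CPM (66.2 to 107). In finer cluster 33 *Gabra6* had 0 UMIs in both libraries, and in its 37 HET nuclei 3 UMIs would stand at 21.8 CPM. *Fat2* was nonetheless at 145 CPM there in HET (88.9 to 225), beside 217 CPM in finer cluster 15, and *Cnpy1* was at 124 CPM in both. The HET nuclei of finer cluster 33 also held 23 of the 37 HET UMIs of *Eomes*, a transcription factor of unipolar brush cells, which are excitatory interneurons of the granule cell layer. *Cbln3* followed *Gabra6*, with 1 UMI in the HET nuclei of finer cluster 33 and 70 UMIs in those of finer cluster 15.

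Finer cluster 21 carried oligodendrocyte markers beside the granule cell genes. In its 46 HET nuclei *Gabra6* had 100 UMIs (317 CPM), *Fat2* 41, *Cbln3* 19 and *Neurod1* 16. Over both libraries *Mog*, a myelin gene, was at 429 CPM there, beside 60.7 CPM in finer cluster 15 and 51.6 CPM in finer cluster 33. Its median doublet score in HET was 0.298 and its median depth 5067 UMIs, beside 0.192 and 2934 UMIs in finer cluster 15. All 4 oligodendrocyte markers were over 2-fold higher there than in the other neuronal clusters, and 4 of 4 were so in finer cluster 15 too. Their part in the result was not tested. In finer cluster 15 alone, the 4 granule cell genes had 85 UMIs in WT, or 647 CPM (517 to 800). In HET they had 693 UMIs there, or 841 CPM (780 to 906). Their log2 ratio in finer cluster 15 was 0.38. No interval was computed for this ratio, so whether it includes 0 is not given.

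**Figure D2:**
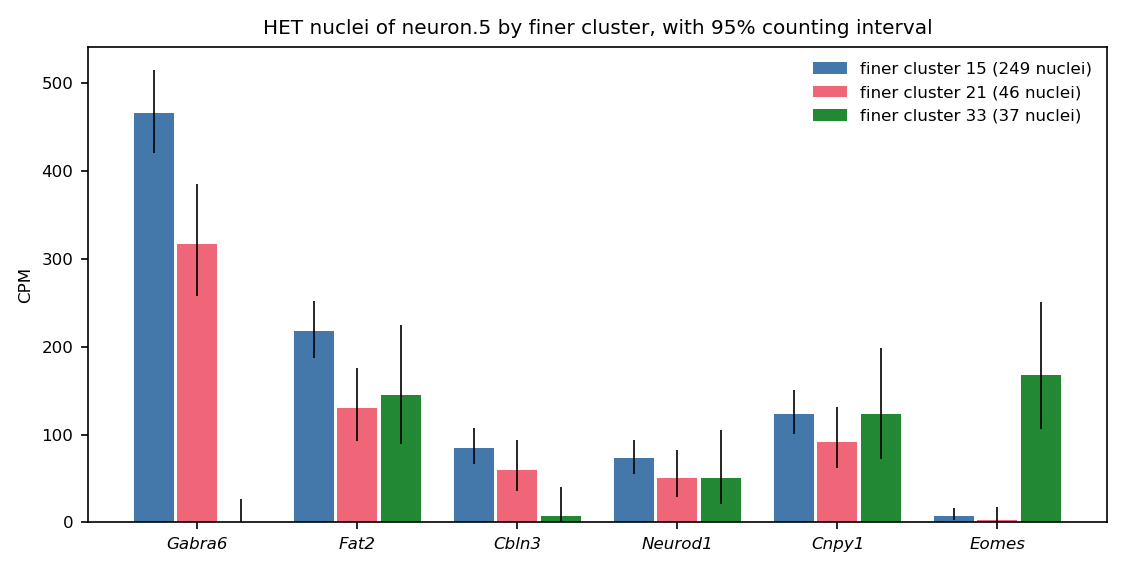
CPM of 5 members and *Eomes* in the HET nuclei of neuron.5, split by the deposited finer clusters 15 (blue, 249 nuclei), 21 (red, 46) and 33 (green, 37). Bars start at 0 and lines are 95% counting intervals. *Gabra6* and *Cbln3* are near 0 in finer cluster 33, where *Fat2* and *Cnpy1* are not and where *Eomes* is at 167 CPM.

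Outside neuron.5, 6 of the 7 members were again at least 2-fold higher in HET, where 5.12% of 21976 genes were. *Gabra6* had 39 UMIs in WT and 212 in HET, a log2 ratio of 2.55 (2.06 to 3.09). *Fat2* had 64 and 303 UMIs, 2.36 (1.96 to 2.77), and *Cbln3* 40 and 151 UMIs, 2.03 (1.52 to 2.57). *Neurod1* had 164 and 196 UMIs, a log2 ratio of only 0.37 (0.06 to 0.68). *Cnpy1* had 37 and 215 UMIs, 2.65 (2.14 to 3.20). The WT nuclei with at least 1 of the 4 granule cell genes were 2.73% of 9217, and the HET nuclei were 7.53% of 8690.

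A low level of the granule cell genes was spread over glia in HET. In oligodendrocytes, which are not known to use these genes, *Gabra6* had 5 UMIs in WT and 53 in HET, or 0.856 and 6.72 CPM, a log2 ratio of 2.97 (1.66 to 4.65). *Fat2* had 4 and 38 UMIs there, *Cbln3* 13 and 42 and *Neurod1* 8 and 26. *Cnpy1* had 0 and 21 UMIs, at least 5.19-fold higher in HET when WT is set to 3 UMIs. Thus 5 of the 5 members with at least 20 UMIs in oligodendrocytes were at least 2-fold higher, beside 4.53% of 14867 genes. The share of oligodendrocytes with any of the 4 granule cell genes was 1.36% of 1767 WT nuclei (0.872% to 2.01%) and 4.62% of 2382 HET nuclei (3.81% to 5.54%), at medians of 2738 and 2853.5 UMIs. In nuclei that both deposited labels call oligodendrocytes, *Gabra6* had 5 and 49 UMIs.

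The oligodendrocyte shares serve as a reference for the other clusters and are called background below. The source of the UMIs in oligodendrocytes was not tested. With each nucleus thinned to 1000 UMIs, *Gabra6* was found in 29.5% of WT and 31.3% of HET nuclei of neuron.5. The same share was 0.0439% and 0.419% in oligodendrocytes, and 0.0495% and 0.218% in neuron.1, the largest neuronal cluster. *Gabra6*, *Fat2* and *Cbln3* in HET neuron.1 lay below the oligodendrocyte share at equal depth, and the source of these UMIs was not tested. In neuron.1, 6 of the 7 members were at least 2-fold higher in HET (4.80% of 20477 genes were). Without thinning, *Gabra6* was found in 0.318% of the 5032 WT and 1.69% of the 4079 HET nuclei of neuron.1, at medians of 7752.5 and 8509 UMIs. No nucleus was left out, as each had over 1000 UMIs.

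**Figure D3:**
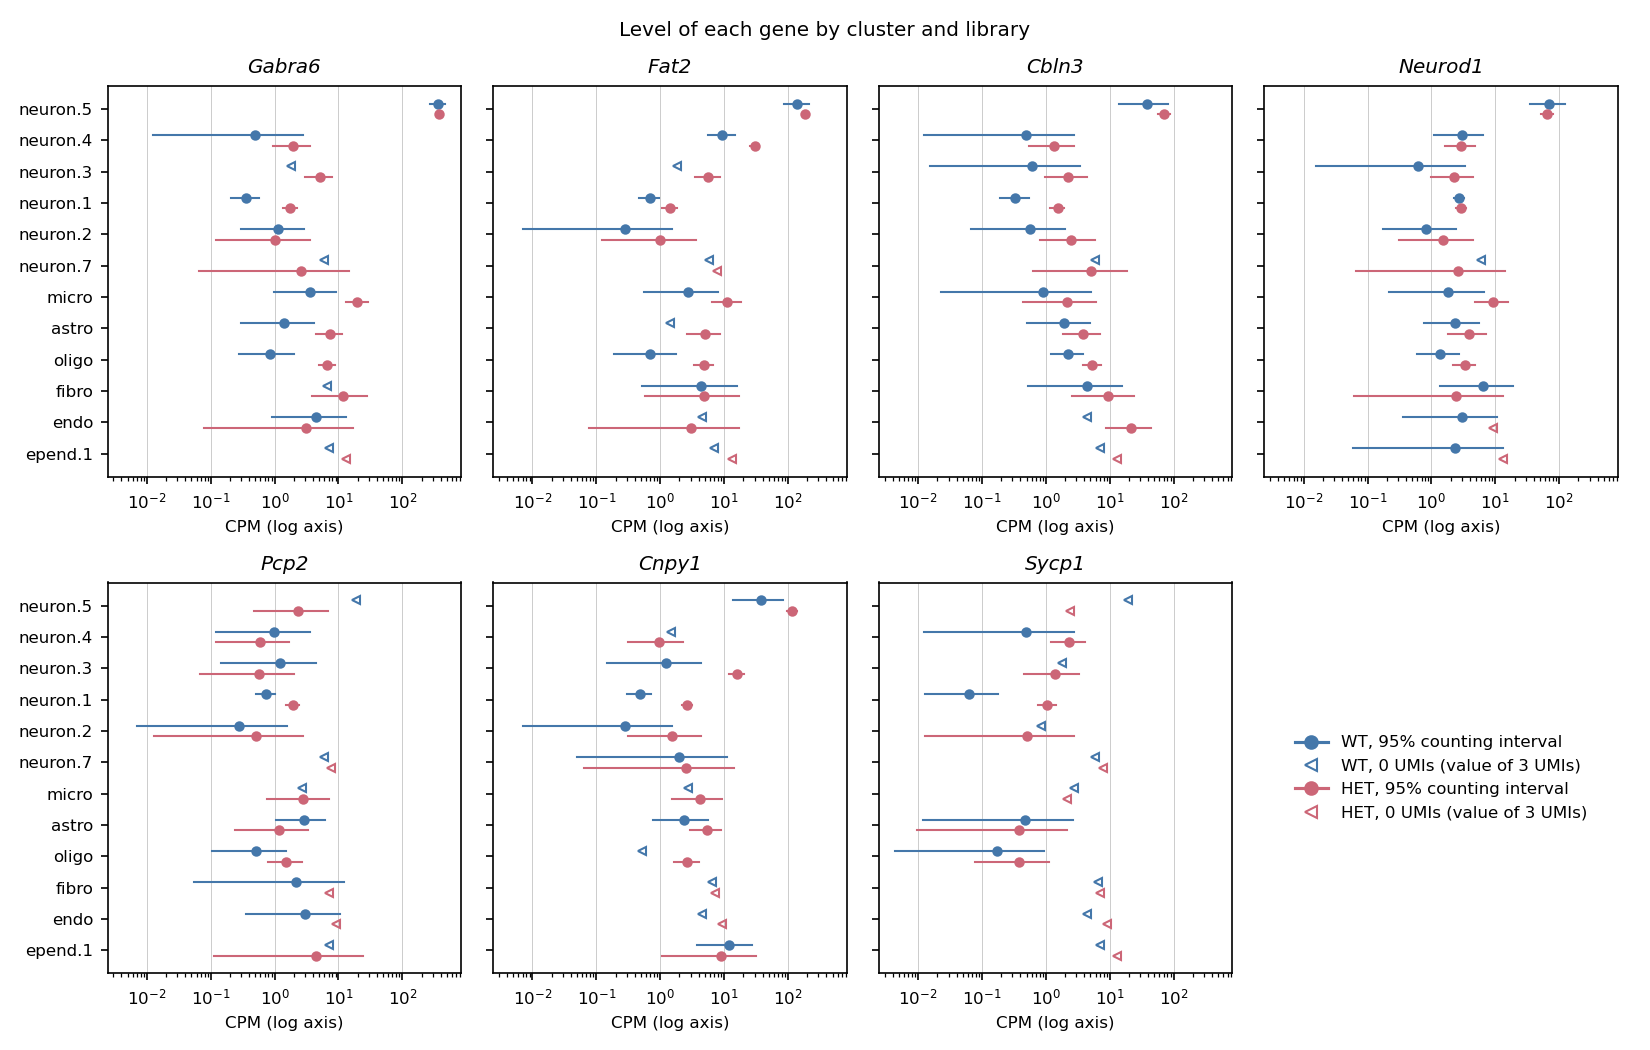
CPM of each member by cluster in WT (blue) and HET (red), on a log axis, with 95% counting intervals, for the 12 clusters where each library had 30 nuclei or more. Open triangles mark 0 UMIs and stand at the value of 3 UMIs. *Gabra6*, *Fat2*, *Cbln3*, *Neurod1* and *Cnpy1* are highest in neuron.5 in both libraries, whereas *Pcp2* and *Sycp1* are not.

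The mix of the 4 granule cell genes was not the same in glia as in neuron.5. In HET, *Gabra6* made up 54.0% of their 897 UMIs in neuron.5 (50.6% to 57.3%) but 33.3% of their 159 UMIs in oligodendrocytes (26.1% to 41.2%). *Cbln3* made up 10.0% in neuron.5 (8.15% to 12.2%) and 26.4% in oligodendrocytes (19.7% to 34.0%). In WT oligodendrocytes, *Cbln3* made up 13 of 30 UMIs and *Gabra6* 5 of 30. In HET microglia *Gabra6* made up 46.7% of 60 UMIs (33.7% to 60.0%), an interval that overlaps those of both neuron.5 and oligodendrocytes. *Gabra6*, *Fat2* (26.7%) and *Cbln3* (5%, 1.04% to 13.9%) lay nearer to neuron.5 than to oligodendrocytes there. *Neurod1* went the other way, at 21.7% (12.1% to 34.2%), beside 9.25% in neuron.5 (7.44% to 11.3%) and 16.4% in oligodendrocytes. Of the 28 *Gabra6* UMIs in HET microglia, 23 were in finer cluster 28, described below. The source of the UMIs in glia was not tested.

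**Figure D4:**
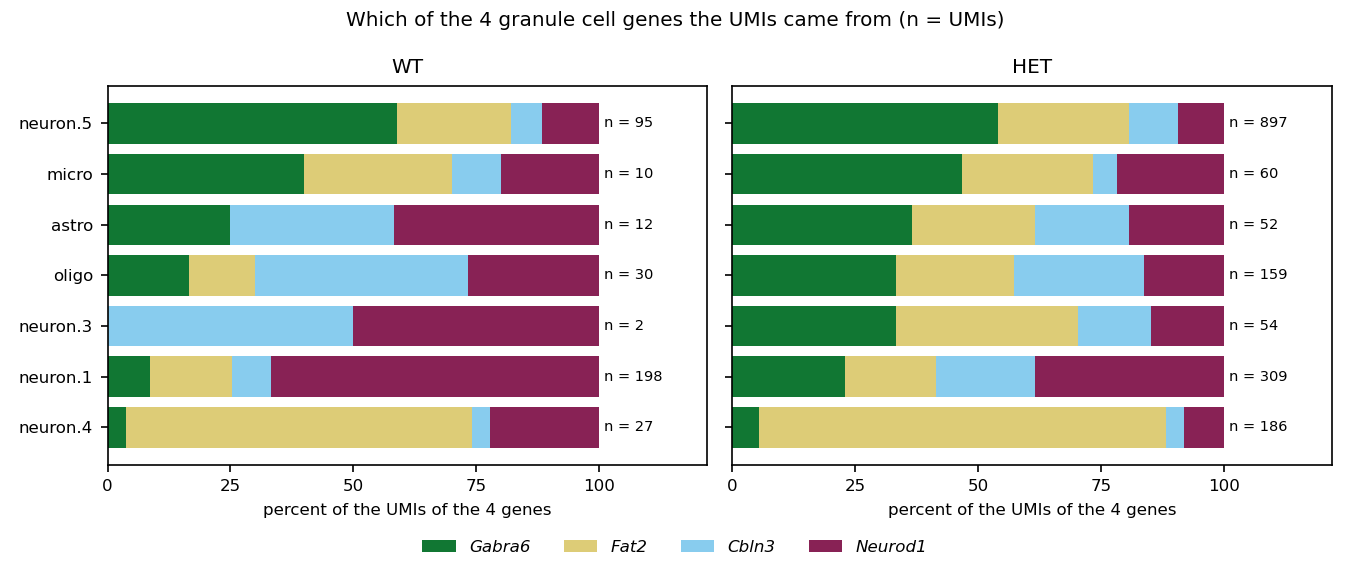
Percent of the UMIs of the 4 granule cell genes that came from *Gabra6* (green), *Fat2* (yellow), *Cbln3* (light blue) and *Neurod1* (dark red), by cluster, for WT and HET, with the number of UMIs (n) beside each bar. *Gabra6* is the largest share in neuron.5, *Neurod1* in neuron.1 and *Fat2* in neuron.4, in both libraries.

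In HET, 16 nuclei outside neuron.5 held at least 3 of the 4 granule cell genes, and in WT 0 did. Their median depth was 12423 UMIs and their median doublet score 0.273, beside 5646 UMIs and 0.116 in the whole HET library, and 10 of the 16 were in non-neuronal clusters. Within microglia, finer cluster 28 had 23 *Gabra6* UMIs in 11 of 40 HET nuclei and 0 in 47 WT nuclei. The HET level was 83.9 CPM, and 0 UMIs in WT allow up to 11.7 CPM. In the same nuclei of both libraries *Mog* was at 772 CPM and *Cx3cr1*, a microglial gene, at 329 CPM. As a pool, the nuclei of this finer cluster thus held markers of more than 1 cell type. Whether single nuclei held both was not examined, and their part in the *Gabra6* level was not tested.

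*Fat2* was also above background in a second cluster, neuron.4. That cluster had 19 *Fat2* UMIs in WT and 154 in HET, or 9.38 and 30.0 CPM, a log2 ratio of 1.67 (0.98 to 2.45). *Fat2* was found in 15 of 114 WT nuclei (13.2%) and 109 of 339 HET nuclei (32.2%), at medians of 14737.5 and 12806 UMIs. At 1000 UMIs a nucleus *Fat2* was found in 0.882% and 3.94% of them, beside 0.0283% and 0.298% in oligodendrocytes, so both were above background. The median doublet score of neuron.4 was 0.228 in WT and 0.279 in HET, above the library medians of 0.169 and 0.116, and its part in the *Fat2* level was not tested. *Gabra6* had only 1 and 10 UMIs in neuron.4, and *Cbln3* 1 and 7. Of the 2 members with at least 20 UMIs there, *Fat2* alone was at least 2-fold higher, beside 4.83% of 13711 genes.

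In HET, 21 of 24 other granule cell genes were higher and 3 lower in the neuron.4 nuclei with *Fat2* than in those without it. The share of all genes that were higher was not counted, so nothing is read from the counts of genes here. The genes named next were chosen after their values were seen. *Slc17a7*, which loads glutamate into vesicles and is used by granule cells, was at 129 CPM in the 109 nuclei with *Fat2* and at 108 CPM in the 230 without it. *Barhl1*, a transcription factor of the rhombic lip lineage, was at 8.79 and 8.74 CPM. *Cadps2*, a factor of vesicle release, was at 16.9 and 8.18 CPM, and *Chn2*, a regulator of Rac signaling, at 82.2 and 53.0 CPM. Of 15 Purkinje cell genes with UMIs there, 7 were higher and 8 lower. In the WT library 1 nucleus of neuron.1 held 15 of the 86 *Fat2* UMIs among its 67940 UMIs. Without it, a choice made after its count was seen, the log2 ratio of *Fat2* in neuron.1 was 1.91 in place of 1.04, and over all nuclei 3.02 in place of 2.75.

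*Neurod1* differed from the other 3 granule cell genes in where its UMIs lay. In WT, 75.4% of its UMIs (132 of 175) were in neuron.1 and 6.29% in neuron.5. In HET, 42.7% (119 of 279) were in neuron.1 and 29.7% in neuron.5. In neuron.1 it stood at 2.73 CPM in WT and 2.93 CPM in HET, which is 0.10 on the log2 scale (−0.27 to 0.47). At 1000 UMIs a nucleus it was found there in 0.311% of WT and 0.347% of HET nuclei, beside 0.171% and 0.298% in oligodendrocytes. Its level in neuron.5 was 69.9 and 65.0 CPM, and the intervals of the ratio in both clusters included 0 while the log2 ratio over all nuclei was 0.76.

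In neuron.1 *Cnpy1* had 23 UMIs in WT and 107 in HET, and its level there in HET, 2.63 CPM (2.16 to 3.18), was not above that of oligodendrocytes, 2.66 CPM (1.65 to 4.07). In WT it was at 0.476 CPM (0.302 to 0.715) in neuron.1, beside 0 UMIs in oligodendrocytes (0 to 0.631 CPM). In neuron.3 it had 2 UMIs in WT and 56 in HET, or 1.21 and 15.8 CPM, with a ratio of 13.0-fold that rests on 2 WT UMIs (log2 interval 1.78 to 6.78). In finer cluster 13 of neuron.3, it was found in 1 of 130 WT nuclei and in 24 of 219 HET nuclei, with 2 and 50 UMIs. Of 18 other Purkinje cell genes 13 were higher and 5 lower in those 24 nuclei than in the other 195, of 6 molecular layer interneuron genes 4 were higher and 2 lower, and of 23 granule cell genes with UMIs 9 were higher and 14 lower. The share of all genes that were higher was not counted here either, so nothing is read from these counts. Among those 219 HET nuclei, *Tfap2b*, a transcription factor of GABAergic neurons, was at 97.7 CPM in the 24 with *Cnpy1* and at 5.58 CPM in the other 195. *Rora*, a nuclear receptor needed by Purkinje cells and other cerebellar neurons, was at 12192 and 2657 CPM. *Car8*, a Purkinje cell protein that binds the inositol trisphosphate receptor, was at 333 and 16.3 CPM and was found in 6 of the 24 nuclei. *Prkcd*, listed for molecular layer interneurons, was at 207 and 30.7 CPM, in 10 of the 24 nuclei. Genes of the same lists that were lower were *Nxph1*, at 253 and 872 CPM, and *Calb1*, at 34.5 and 121 CPM. Among the granule cell genes, *Zic1* was at 28.7 and 5.58 CPM and *Neurod2* at 28.7 and 5.12 CPM, each from 5 UMIs in the 24 nuclei, and *Slc17a7* had 0 UMIs there and 15 in the other 195. The medians were 4267.5 UMIs in the 24 nuclei and 9769 in the 195. These genes were picked from the lists after their values were seen.

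*Pcp2* was thinly spread in both libraries, and a few nuclei held much of it in HET. It was found in 51 of 9259 WT nuclei and 69 of 9022 HET nuclei, as 1 UMI in 47 and 63 of them. At 1000 UMIs a nucleus, its share in neuron.1 was 0.0979% in WT and 0.164% in HET, beside 0.0503% and 0.154% in oligodendrocytes, so in HET it was not told from background. The exceptions were 4 HET nuclei with 17, 10, 7 and 6 *Pcp2* UMIs, all in finer cluster 0 of neuron.1. The highest count in a WT nucleus was 3, and in any other HET nucleus 2. The 4 nuclei held 37.4% of the HET *Pcp2* UMIs (40 of 107). Without them *Pcp2* had 56 UMIs in WT and 67 in HET, a log2 ratio of 0.35 (−0.19 to 0.89), an interval that includes 0.

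The same 4 nuclei held 46.2% of the HET UMIs of *Sycp1* (30 of 65), as 4, 19, 3 and 4 UMIs. Without them *Sycp1* had 9 and 35 UMIs, a log2 ratio of 2.05 (0.96 to 3.29). They also held 43, 58, 52 and 60 UMIs of *Car8*, that is 213 of 677 in the whole HET library. Their summed level of *Car8* was 2453 CPM, beside 7.18 CPM in the other 1572 HET nuclei of finer cluster 0. *Itpr1*, the inositol trisphosphate receptor abundant in Purkinje cells, was at 6715 and 55.1 CPM, *Calb1*, a calcium buffer of Purkinje cells, at 1071 and 19.1 CPM, and *Ppp1r17*, a phosphatase inhibitor of Purkinje cells, at 253 and 0.218 CPM. *Pcp4* was at 299 and 55.6 CPM. Of the granule cell genes they held 1 *Gabra6* UMI and 0 of *Fat2*, *Cbln3* and *Neurod1*, and *Cnpy1* also had 0. Their depths were 17136 to 30856 UMIs and their doublet scores 0.159 to 0.344. The limit of 5 UMIs and the genes named here were set after the counts were seen, 4 nuclei are too few for a cluster, and no WT nucleus reached the limit.

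**Figure D5:**
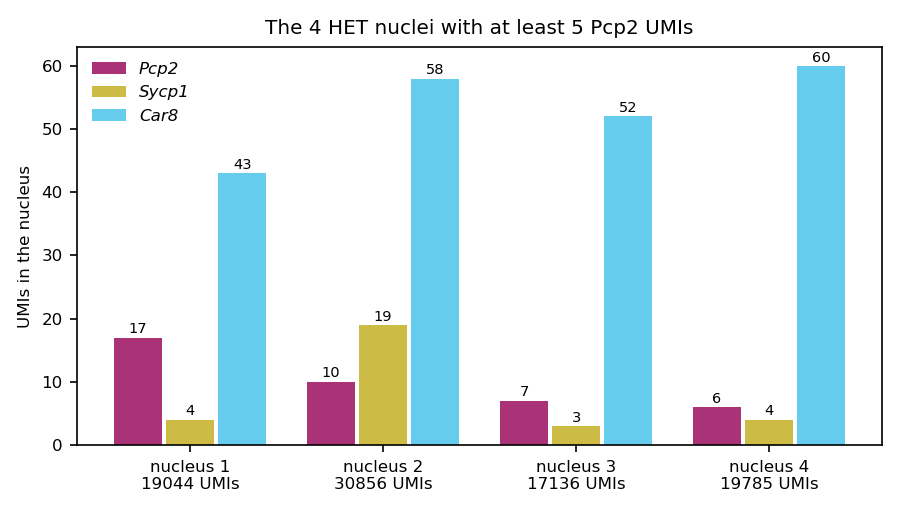
UMIs of *Pcp2*, *Sycp1* and *Car8* in each of the 4 HET nuclei with at least 5 *Pcp2* UMIs, with the total UMIs of the nucleus under each group. All 4 hold the 3 genes, with 17 to 6 UMIs of *Pcp2*, 3 to 19 of *Sycp1* and 43 to 60 of *Car8*.

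*Sycp1* was the rarest of the 7 genes. In WT its 9 UMIs came from 8 nuclei, and in HET its 65 UMIs came from 35 nuclei, the 4 nuclei above included. Neuron.4 had 1 UMI in WT and 12 in HET, and oligodendrocytes 1 and 3. The 8 other genes of the synaptonemal complex with at least 20 UMIs did not follow it, as 2 were higher and 6 lower in HET, 0 by 2-fold, with a median log2 ratio of −0.16 beside −0.09 over all genes. *Tex12* had the highest ratio at 0.85, then *Sycp2* at 0.25, and *Sycp3* and *Syce2* the lowest at −0.54 and −0.47.

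Levels were ordered over the 12 clusters where each library had 30 nuclei or more, and the smaller clusters were not ranked. Neuron.5 came first for *Gabra6*, *Fat2*, *Cbln3*, *Neurod1* and *Cnpy1* in both libraries. In WT, however, its interval overlapped that of the next cluster for *Cbln3* (fibroblasts) and *Cnpy1* (ependyma). For *Gabra6* in WT, the next cluster was endothelium at 4.44 CPM (0.915 to 13.0), and from there down the intervals of all neighbors overlapped. In HET, the next was microglia at 19.8 CPM (13.1 to 28.6), then fibroblasts, astrocytes and oligodendrocytes at 11.9, 7.30 and 6.72 CPM, with overlapping intervals. For *Fat2*, neuron.4 was second in both libraries with an interval clear of neuron.5, at 9.38 CPM in WT (5.65 to 14.7) and 30.0 CPM in HET (25.4 to 35.1). For *Cnpy1*, neuron.3 was second in HET at 15.8 CPM (11.9 to 20.5). For *Pcp2* the first 5 clusters overlapped in both libraries, at 0.988 to 2.96 CPM in WT and 1.52 to 4.40 CPM in HET.

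Across 24 points (12 clusters in each of 2 libraries) the granule cell genes had alike profiles. The Pearson correlation of log2(CPM + 1) was 0.85 between *Gabra6* and *Neurod1*, 0.82 between *Gabra6* and *Fat2* and 0.80 between *Gabra6* and *Cbln3*. It was 0.66 between *Cbln3* and *Neurod1*, 0.64 between *Gabra6* and *Cnpy1* and 0.01 between *Gabra6* and *Pcp2*. The points share libraries and depth and 2 of them are neuron.5, so these are descriptions. Among 18153 genes with at least 100 UMIs, the unnamed gene *Gm36011* was the most like *Gabra6* (0.91), *Fat2* (0.92) and *Cbln3* (0.85), and the second most like *Neurod1* (0.87), after *Gm39033* (0.89). Next for *Gabra6* came *Gm42912*, *Neurod1*, *Dusp5* and *Fat2*, and for *Fat2* came *Gm42912*, *Slc17a7*, *Crtam* and *Ldlrad4*. For *Cbln3* the others were *Zranb1*, *Gabra6*, *Il16* and *Gm42397*, and for *Neurod1* *Gm42912*, *Optc* and *Dusp5*. *Cnpy1* was most like *Exph5* (0.81), *Otx2os1*, *Otx2*, *Lmx1a* and *9530036M11Rik*. *Pcp2* had no close partner, with *Zfp647* first at 0.74, then *Pcdhga8*, *Gm4285*, *Atp12a* and *Mad2l1*.

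The other granule cell genes differed less than most members. Of 24 listed, 22 were higher and 2 lower in HET over all nuclei, where 41.1% of the 21997 genes were higher. At least 2-fold higher were 2 of the 24, beside 5.10% of those genes. The median log2 ratio of the list was 0.37 beside −0.09 over all genes. *Barhl1* had 33 and 106 UMIs, a log2 ratio of 1.77, and *Slc17a7* had 479 and 1252 UMIs, 1.47. The lowest were *Uncx*, a homeobox factor, at −0.24 and *Zic2*, a zinc finger factor, at −0.04, which is above the median of all genes. Inside neuron.5, 22 of the 24 had at least 20 UMIs, of which 10 were higher and 12 lower in HET, with a median of −0.06. At least 2-fold higher there were 2 of the 22, beside 13.0% of the 8893 genes tested there, so nothing is read from that count. They were *Grm4*, with 3 and 133 UMIs and a log2 ratio of 2.45 (0.87 to 4.74), and *Calb2*, with 2 and 69 UMIs and 2.09 (0.18 to 5.16), both named after their values were seen. The partners of granule cell synapses were split, with 8 higher and 7 lower and a median of 0.03. *Gabrb2*, a subunit of GABA-A receptors, was highest at 0.59, and *Cbln2* and *Gria2*, a cerebellin and an AMPA receptor subunit, were lowest at −0.47 and −0.26.

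Over all nuclei, other Purkinje cell genes did not follow *Pcp2*. Of 18 listed, 8 were higher and 10 lower in HET, 0 by 2-fold, with a median log2 ratio of −0.08, close to the −0.09 over all genes. *Ppp1r17* had 35 and 64 UMIs, a log2 ratio of 0.96, and *Car8* had 385 and 677, 0.90, and both include the 4 nuclei described above. Without them *Car8* had 464 HET UMIs and a log2 ratio of 0.36. The transcription factors *Lhx5* and *Foxp2* were lowest at −0.80 and −0.65. In neuron.1, which holds the 4 nuclei, 12 of the 18 were higher and 6 lower. The median there was 0.19, beside −0.09 over all genes. At least 2-fold higher there were 2, beside 4.80% of 20477 genes, with *Ppp1r17* highest at 1.75. The share of all genes that were higher in neuron.1 was not counted. Many genes of the list, such as *Calb1* and *Foxp2*, are also used by other brainstem neurons.

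Lists for other cell types of the cerebellar cortex were small. Of 4 unipolar brush cell genes 3 were higher in HET, with a median log2 ratio of 0.46. *Eomes* had 6 and 37 UMIs, a log2 ratio of 2.71 (1.45 to 4.25), and *Lmx1a* 0.56, while *Otx2* had 152 and 50 UMIs, −1.52 (−2.01 to −1.05). Of 6 molecular layer interneuron genes 4 were higher and 2 lower, with a median of 0.03, from *Prkcd* at 0.17 and *Nxph1* at 0.13 to *Tfap2b* at −0.32 and *Tfap2a* at −0.27. Of 4 Golgi cell genes 1 was higher and 3 lower, with a median of −0.41, from *Grm2* at 0.11 to *Slc6a5*, a glycine transporter of many brainstem neurons, at −0.60. Of 4 Bergmann glia genes 2 were higher and 2 lower, with a median of −0.10, also close to that of all genes, but 0.33 among genes with at least 100 UMIs, from *Slc1a3* at 0.59 to *Hopx* at −0.83 and *Gdf10*, which had 43 and 28 UMIs, at −0.53.

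The relatives of single members did not share their ratios. The 3 other canopy genes were all lower in HET, with *Cnpy4* and *Cnpy3* at −0.37 and *Cnpy2* at −0.72. The 5 other Fat family protocadherins were all higher but by little, from 0.02 for *Fat4* and 0.11 for *Fat3* to 0.23 for *Dchs1* and 0.27 for *Dchs2*. Of the 3 other G protein modulators listed with *Pcp2*, *Gpsm2* was at 0.76, *Gpsm3* at −0.42 and *Gpsm1* at −0.51, with a median of −0.42 that was 0.12 among those with at least 100 UMIs.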

How the data were processed

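Nuclei of frozen brainstem from 1 WT and 1 HET mouse were sequenced with 10x Chromium 3′ chemistry. The deposited counts are whole UMIs per gene and nucleus, made by the authors with Cell Ranger (version not given in the sources used here) against mm10 and handled in Seurat 4.1. The authors removed nuclei with under 1000 genes or over 15% mitochondrial reads, mitochondrial and hemoglobin genes, and doublets. Clusters, a doublet score per nucleus from a caller that the sources used here do not name, and the percent of mitochondrial, ribosomal and hemoglobin reads were used or read as deposited by the authors. The percent columns entered no result.

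UMIs were summed per library and cluster and divided by the total of the same nuclei. With 1 library a genotype no test was run, and nuclei were not treated as replicates. Exact Poisson and Clopper-Pearson 95% intervals cover counting error only, and a count of 0 was given a floor of 3 UMIs. Genes needed 20 UMIs for counts of genes and 100 for correlations. For shares at equal depth, the chance that 1000 UMIs drawn from a nucleus hold the gene was averaged over nuclei. The intervals were run on simulated counts for 25556 genes of which 200 differed between WT and HET over all nuclei, and covered the true ratio for 95% of them. The simulated counts were Poisson totals per library, so this checks the calculation only. They left out the piling of UMIs in single nuclei, as seen for *Pcp2* and *Sycp1*, so coverage on the real counts is not known. Promoters came from RefSeq and gene spans from GENCODE, both on mm10.

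The 7 members and 11 gene lists (96 genes) were chosen with earlier results of these data known, so no list is independent evidence. From each list the 2 highest and 2 lowest genes were named, and for each member with at least 100 UMIs the 5 genes with the most similar profile. Other named genes were chosen after their values were seen. Some genes of the lists are not reported here. Alternatives covered the scaling, weighting of nuclei and clusters, depth, doublet score, ribosomal protein genes and the genes summed. Scripts ran in Python 3.11.15 with scipy 1.17.1 for intervals, numpy 2.4.6 and pandas 2.3.3 for sums and matplotlib 3.10.9 for plots.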

Additional observations from a re-analysis of the deposited data

How the results depend on the processing

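No paired analysis was possible because each genotype had 1 library, and for the same reason no replicate could be left out. The log2 ratio of the 4 granule cell genes over all nuclei, 2.22 as reported, was 2.44 as a mean over nuclei of CPM and 2.44 with each nucleus thinned to 1000 UMIs, which are the same quantity because no nucleus had fewer UMIs. It was 0.71 with equal cluster weights, 1.60 without neuron.5, 1.88 without *Gabra6*, 2.03 without *Fat2*, 2.79 without *Neurod1* and 1.75 as a share of nuclei with a UMI, the last added after the data were seen. Outside neuron.5 it was 2.33 without *Neurod1* in place of 1.60. The share of these UMIs that neuron.5 held in HET was 65.6% as a mean over nuclei or thinned, in place of 51.0%. All 33 alternative ratios of the 4 genes were above 0, and 24 lay within the counting interval of the reported value. Of 59 alternatives for single members all were above 0 and 55 lay within that interval. The others were *Fat2* at 3.17 as a mean over nuclei or thinned, and *Pcp2* at 0.47 as a share of nuclei and at 0.35 without the 4 nuclei rich in it, both added after the data were seen. With genes of at least 1 or at least 100 UMIs, 20 of 22 list medians kept their direction. The other 2, both with at least 100 UMIs, where fewer genes are counted, were the Bergmann glia genes at 0.33 and the G protein modulators at 0.12. Inside neuron.5 the 42 WT nuclei limit what could be detected.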
